A study of Mus musculus with 2 samples.

Results

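Low-count cells were segmented cells of mouse liver that held 3 to 9 counts over the 500 genes of the panel, and they were set against well-covered cells, which held at least 20. The comparison shows which genes and cell type markers a limit on counts per cell takes out of the data. There were 33838 low-count cells and 10987 well-covered cells among 111966 segmented cells. Both classes were chosen by the summed gene counts themselves, so the counts and the gene shares that follow from that choice are given as descriptions. The rule also asked for a cell volume of at least 50. The smallest cells had volumes of 61.6 in section 1 and 61.2 in section 2, in a unit the file headers do not name, so this minimum removed 0 cells.

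The data came from 2 liver sections of Mus musculus, replicates 1 and 2 of a single group labelled Liver_2d, imaged with MERFISH. This method reads single RNA molecules in tissue by repeated rounds of imaging and assigns each to a gene by its barcode. The labels give no treatment, strain, age or sex, and do not say what 2d stands for or whether the sections came from separate animals. The series' design text speaks of mice with liver metastases given TA33 or TA33.Combo, but neither sample's labels name such an agent, so no treatment was assigned. The spread between the sections may therefore be technical, and every comparison below lies within a section. The sections shared 0 cell identifiers.

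A liver lobule is built mostly of hepatocytes, large cells that make haptoglobin, fibrinogen, prothrombin and other plasma proteins. Between their plates lie smaller cells: sinusoidal endothelial cells, Kupffer cells, which are the resident macrophages, stellate cells, which can make collagen, and blood and immune cells. A minimum count per cell is a usual first filter in imaging data, and it can act unequally on cell types that differ in size, in RNA content or in how many of their genes the panel covers.

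The sections differed in how many cells fell into each class. Section 1 had 5967 low-count cells, 22.9% of its 26037 cells, and 6034 well-covered cells, or 23.2%. Section 2 had 27871 low-count cells, 32.4% of its 85929, and 4953 well-covered cells, or 5.76%. The remaining cells held 0 counts (24.8% in section 1 and 26.6% in section 2), 1 to 2 counts (16.9% and 22.1%) or 10 to 19 counts (12.2% and 13.2%). A low-count cell held a median of 5 gene counts in both sections. A well-covered cell held a median of 42 in section 1, where the fullest cell had 496, and 26 in section 2, where the fullest had 147. Low-count cells carried 32134 gene counts in section 1, 7.50% of all, against 346352 in well-covered cells. In section 2 the 2 classes carried nearly equal sums, 148654 and 147541. The low-count sum of section 1 was therefore the thinnest of the 4.

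**Figure D1:**
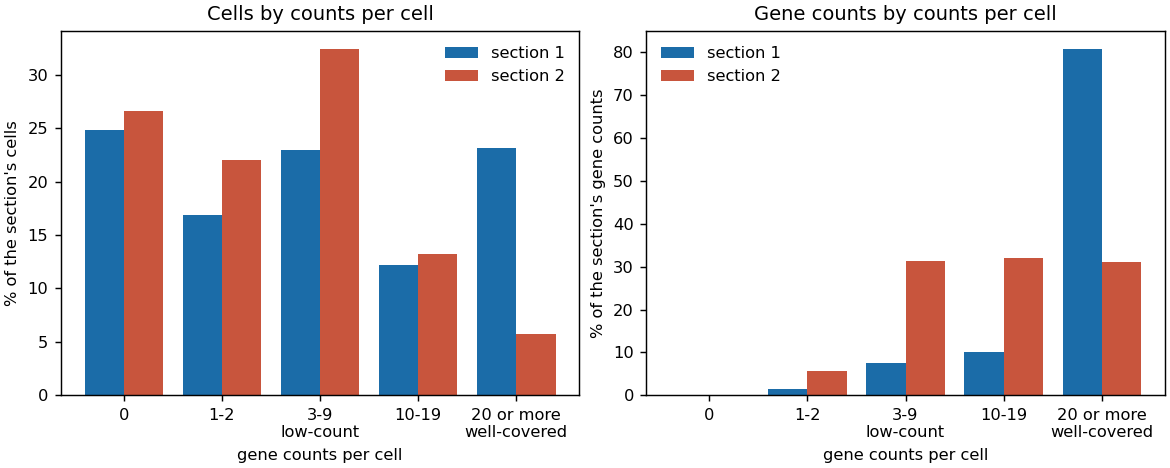
Bars give the percent of each section's cells (left) and gene counts (right) in 5 classes of gene counts per cell, for section 1 (blue) and section 2 (red). Low-count cells were 22.9% and 32.4% of cells but carried 7.50% and 31.3% of gene counts.

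Blank barcodes, which stand for no gene and count false reads, took a larger part of the low-count sums. In section 1 there were 298 blank counts per 10000 gene counts in low-count cells and 53.0 in well-covered cells. In section 2 there were 43.6 and 27.0. The single highest blank barcode reached 0.380% of the gene counts in section 1 low-count cells and 0.0606% in well-covered cells, and 0.248% and 0.0901% in section 2. Of the 500 genes, 50 lay above that level in section 1 low-count cells, 202 in well-covered cells, 66 in section 2 low-count cells and 134 in well-covered cells. Only 36 genes lay above it in all 4 sums, and the shares of most cell type markers other than hepatocyte ones in low-count cells were at or below it. This level rests on a single barcode. That barcode held 122 of 956 blank counts in section 1 low-count cells and 368 of 648 in those of section 2. Above the mean blank lay 223 genes in section 1 low-count cells and 388 in those of section 2. A share under the highest blank therefore does not by itself mark a gene as noise.

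The genes with the largest shares were nearly the same in both classes. In section 1 low-count cells Fn1, which encodes fibronectin, took 6.15% of gene counts, Ctsb, a lysosomal protease, 5.61%, and Hp, which encodes haptoglobin, 5.33%. F2, the prothrombin gene, took 4.29% and Igfbp4, a binding protein of insulin-like growth factors, 3.33%. In section 1 well-covered cells the leading genes were Fn1 at 8.76%, Hp at 8.16%, F2 at 5.76%, Ctsb at 5.05% and Fgb, the fibrinogen beta chain gene, at 4.79%. In section 2 low-count cells Hp took 13.5%, Igfbp2, another such binding protein, 12.6%, Igfbp4 5.65%, F2 4.86% and Ctsb 3.31%. In section 2 well-covered cells Hp took 16.8%, Igfbp2 13.8%, Igfbp4 5.40%, F2 5.25% and Fgb 3.62%. Across the 500 genes the shares of the 2 classes had a Spearman correlation of 0.783 in section 1 and 0.979 in section 2, as a description over genes measured in the same section. The low-count sums of the 2 sections correlated at 0.694 and the well-covered sums at 0.886.

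Hepatocyte transcripts took a smaller share in low-count cells of both sections. The 22 hepatocyte markers on the panel together made up 21.6% of gene counts in section 1 low-count cells (95% Wilson interval 21.2 to 22.1) against 31.3% in well-covered cells (31.2 to 31.5). In section 2 they made up 42.2% (41.9 to 42.4) against 48.9% (48.6 to 49.2). These intervals cover counting error only. Of the 22, 10 lay above the highest blank in section 1 low-count cells and 15 in those of section 2. Hp and Fgb followed the list in both sections: Fgb took 2.67% against 4.79% in section 1 and 2.77% against 3.62% in section 2. The hepatocyte list's share grew along the whole range of counts per cell, from 17.5% in cells with 1 to 2 counts to 32.1% in cells with at least 40 in section 1. In section 2 it grew from 35.8% to 49.1% in cells with 20 to 39 counts and was 48.3% above that. Thinning every cell to 3 counts, so that both classes had equal depth, gave at least 1 hepatocyte count in 47.1% of low-count cells and 61.1% of well-covered cells in section 1, and in 74.3% and 82.7% in section 2. The unthinned values were 61.3% and 96.6%, and 83.5% and 98.1%. At the edges of the rule the share moved little: it was 18.9% in the 1750 section 1 cells with 2 counts and 19.7% in the 1414 with 3, and 23.2% in the 560 cells with 9 counts and 24.8% in the 462 with 10. The 232 cells with 19 counts had 28.4% and the 225 with 20 had 27.1%. In section 2 the same edges were 37.8% and 38.8%, 44.2% and 45.2%, and 47.5% and 49.0%.

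The direction for hepatocytes in section 2 depended on the way cells were chosen, because hepatocyte transcripts themselves fill the total. When cells were chosen only by counts of genes outside the list, hepatocyte counts per 100 other counts were 36.4 in low-count cells and 43.3 in well-covered cells of section 1, but 81.7 and 55.3 in section 2. With the list's own counts left out, hepatocyte transcripts were thus lower in low-count cells of section 1 and higher in those of section 2. The 8 secreted plasma and matrix protein genes gave the same picture, with 22.3% against 33.2% in section 1 and 39.0% against 46.0% in section 2 by the rule. The 6 coagulation genes took 9.04% against 13.3% and 9.04% against 10.8% by the rule. With cells chosen by counts outside that list, coagulation counts per 100 other counts were 11.31 against 15.02 in section 1. In section 2 they were 10.33 against 11.01. Unlike the hepatocyte list, the coagulation list thus stayed lower in low-count cells of both sections.

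**Figure D2:**
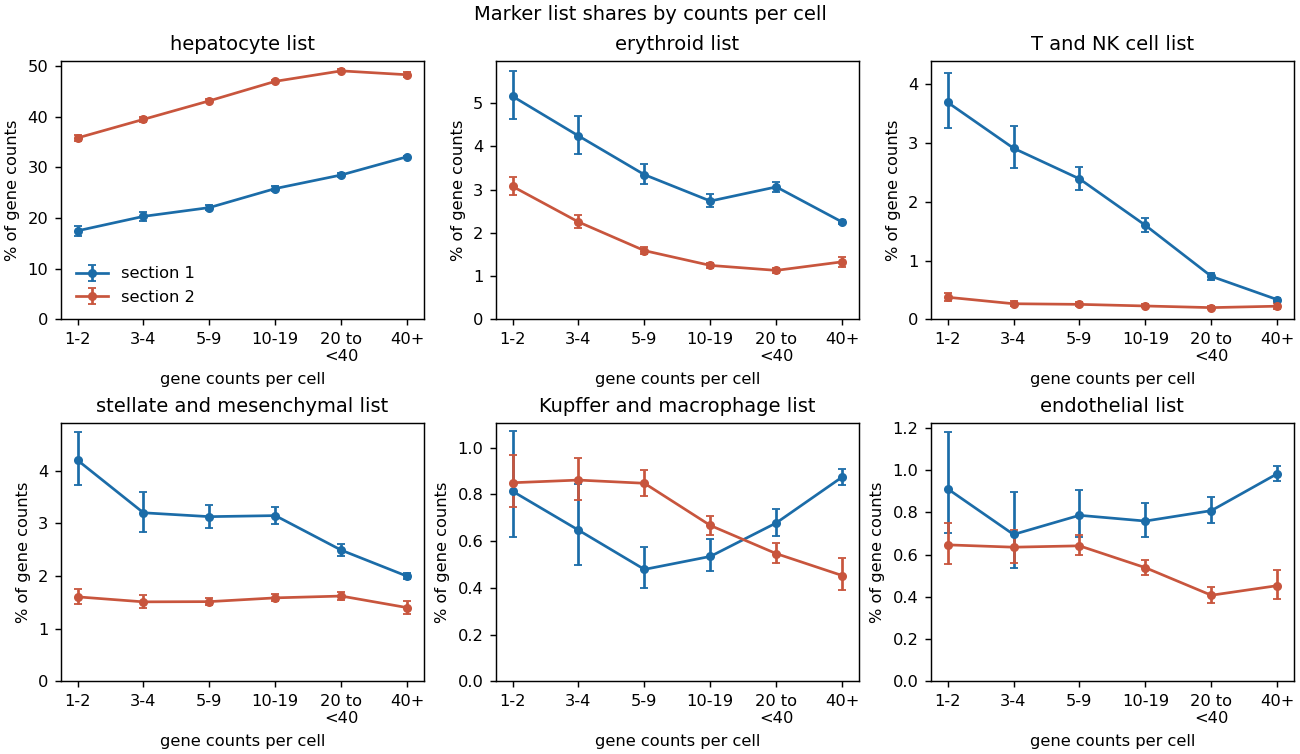
Each panel plots a marker list's share of gene counts (percent, y axis) in cells of rising gene counts (x axis), with 95% Wilson intervals, for section 1 (blue) and section 2 (red). The hepatocyte share climbs in both sections, the T and NK cell share drops from 3.69% to 0.334% in section 1 and lies between 0.198% and 0.375% in section 2, and from 5 to 9 counts upward the Kupffer share climbs from 0.479% to 0.875% in section 1 and drops from 0.848% to 0.453% in section 2.

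To test single genes without letting a gene's own counts choose the cells, cells were classed for each gene by the summed counts of all the other genes, 3 to 9 or at least 20. The gene's counts per 10000 other counts were then compared with edgeR's quasi-likelihood test, with the section as block. Of 425 genes with at least 50 counts over the 4 sums, 2 passed at a Benjamini-Hochberg adjusted p under 0.05, which is 0.471% of those tested. Both were higher in low-count cells. The edgeR test called 0 genes lower, and at an unadjusted p under 0.05 it had 38 higher and 1 lower, together 9.18% of those tested. More than 2-fold higher in both sections were 22 genes, or 5.18%, and 0 were more than 2-fold lower in both. DESeq2 on the same sums and shares called 1 gene, Rab17, and also 0 lower. Only 220 of the 425 genes, or 51.8%, had the same direction in both sections, and the fit had 1 residual degree of freedom per gene. On data simulated at these means for this comparison, the same test recovered 61.6% of genes changed by 1 on the log2 scale and 99.0% of those changed by 2. The simulation gave every gene the same spread, set in advance and not taken from the data, and the same change in both sections. Recovery of genes whose ratios differ between the sections was therefore not measured and may be lower. In the data Thy1, Lamp3, Itga2 and Anxa3 had fitted log2 changes of 2.07 to 2.18, higher in both sections. None of them was called (adjusted p 0.10 to 0.24, edgeR), so the simulated percentages hold for the set spread only. The median log2 ratio of low-count over well-covered cells was 0.29 over all genes tested, 0.16 in section 1 and 0.33 in section 2, so single ratios are to be read against a centre above 0. TMM scaling moved that median to 0.06 and DESeq2's size factors moved it to 0.04.

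Col1a1, the gene of the collagen alpha-1(I) chain, made mostly by fibroblasts and activated stellate cells, was the first of the pair. It had 476 counts per 10000 other counts in low-count cells and 97.4 in well-covered cells of section 1, and 147 and 52.4 in section 2. The low-count values of both sections lay above both well-covered values, and how many of the other tested genes did so was not counted. The fitted log2 change was 1.89 (SE 0.33, adjusted p = 6.9e-06, edgeR), higher in 2 of 2 sections, with section values of 2.29 and 1.48. Most of the difference lay in cells rich in Col1a1 that held few other counts. In section 1, 26 of the cells with 3 to 9 other counts held at least 20 counts in all, and they carried 667 of the 1523 Col1a1 counts. In section 2, 12 such cells carried 202 of 2173. Without cells of 10 or more counts in all, Col1a1 in low-count cells stood at 117 per 10000 in section 1 and 71.8 in section 2, against the 97.4 and 52.4 of well-covered cells. In the rule's own sums, those of these cells with at least 20 counts in all belong to the well-covered class, and the others to neither class. In these sums Col1a1 took 2.38% of gene counts in low-count cells and 1.38% in well-covered cells of section 1, and 1.10% and 1.15% in section 2. With the gene's own counts kept in the total, the fitted change was 0.37 (SE 0.35, adjusted p = 0.97, edgeR). A gene-count limit of 20 set on the whole total therefore keeps the 26 and 12 cells with at least 20 counts in all. They were part of 120 cells in section 1 and 231 in section 2 with 3 to 9 other counts and 10 or more in all. The limit removes the rest of these.

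Rab17, a small GTPase of membrane traffic in polarised epithelial cells, was the second. It had 113 counts per 10000 other counts in low-count cells and 8.71 in well-covered cells of section 1, and 24.1 and 8.50 in section 2. The fitted log2 change was 2.61 (SE 0.65, adjusted p = 0.015, edgeR), with section values of 3.69 and 1.50. In section 1 none of its counts in that class came from cells with 20 or more counts in all. In section 2, 3 such cells carried 104 of 357, and the fullest cell held 70. Without cells of 10 or more counts in all, which carried 40 of 359 and 168 of 357 Rab17 counts, it stood at 101 per 10000 in section 1 and 12.8 in section 2, against the 8.71 and 8.50 of well-covered cells. In the rule's sums it took 1.26% (1.14 to 1.39) in low-count cells against 0.0935% (0.0839 to 0.104) in well-covered cells of section 1, and 0.273% (0.248 to 0.301) against 0.164% (0.145 to 0.186) in section 2. Low-count cells of section 1 thus held a far larger share of Rab17 than any of the other 3 sums. Transcripts outside segmented cells lay between, at 0.495% in section 1, and above every class, at 0.501%, in section 2. With its own counts kept in the total the fitted change was 2.24 (adjusted p = 0.85, edgeR).

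**Figure D3:**
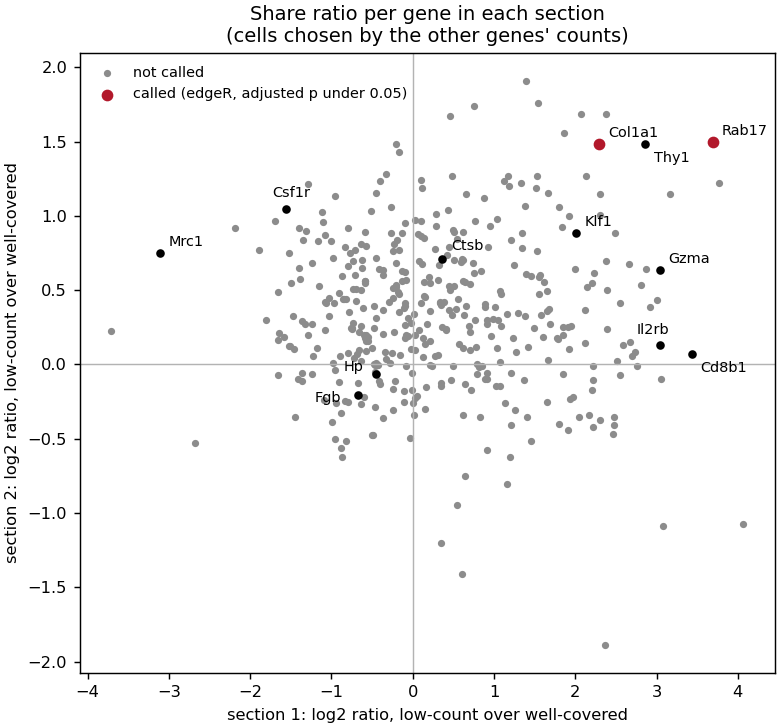
Each point is 1 of 425 genes, placed by its log2 ratio of low-count over well-covered cells in section 1 (x axis) and section 2 (y axis), with cells chosen by the counts of the other genes. Col1a1 and Rab17 (red) passed the edgeR test, while Gzma, Il2rb and Cd8b1 lie far right near the section 2 zero line and Mrc1 and Csf1r lie in the upper left.

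In section 1, a few genes set the low-count shares of the erythroid and the T and NK cell lists. The erythroid list took 3.58% of gene counts in low-count cells against 2.43% in well-covered cells of section 1, and 1.77% against 1.18% in section 2. Klf1, a transcription factor of red cell precursors, made most of it in section 1 low-count cells. It took 2.69% against 0.704% in section 1 and 0.642% against 0.464% in section 2. Its fitted log2 change was 1.45 (SE 0.44, adjusted p = 0.10, edgeR) and did not pass. Without Klf1, the other 4 members took 0.884% against 1.73% in section 1, a lower share in low-count cells, and 1.13% against 0.716% in section 2, a higher one. Epor, the erythropoietin receptor gene, had section log2 ratios of -1.11 and 0.96, Cd24a, a surface glycoprotein of red cell precursors among others, -0.83 and 0.79, and Car2, a carbonic anhydrase gene, -0.72 and 0.60. Above the highest blank of the low-count sum lay 2 of the 5 members in section 1 and 4 in section 2. Of the 5 members tested 0 were called, 2 had a log2 ratio above 0 in section 1 and 5 in section 2. Among all 425 genes tested the shares above 0 were 55.8% and 75.8%.

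The T and NK cell list was further apart between the classes in section 1 than in section 2, a difference between sections that was not tested. Its 13 members took 2.53% (2.36 to 2.70) of gene counts in low-count cells there against 0.423% (0.402 to 0.445) in well-covered cells, and 0.256% (0.232 to 0.283) against 0.204% (0.182 to 0.228) in section 2. Gzma, a granzyme of cytotoxic lymphocytes, took 1.07% against 0.131% in section 1, and Il2rb, a subunit of the interleukin-2 receptor, 0.937% against 0.118%. In section 2 Gzma took 0.0363% against 0.0230% and Il2rb 0.0632% against 0.0691%, all under the highest blank. Of the 13 members only these 2 lay above the highest blank in section 1. The defining T cell gene Cd3e took 0.0747% against 0.0176% there, under the highest blank of the low-count sum. Without Gzma and Il2rb the list took 0.517% against 0.174% in section 1 and 0.157% against 0.112% in section 2. Of 10 members tested 0 were called, and 9 had a log2 ratio above 0 in each section, beside 55.8% and 75.8% of all 425 genes. The median fitted log2 change of the 10 was 0.98 beside 0.29 for all genes. With each cell thinned to 3 counts, 7.48% of low-count and 1.61% of well-covered cells of section 1 held a count of the list, and 0.767% and 0.585% in section 2. Unthinned, the values were 12% and 16.8%, and 1.30% and 5.15%.

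Macrophage, myeloid and general leukocyte markers went in opposite directions in the 2 sections. The Kupffer and macrophage list took 0.523% in low-count cells against 0.831% in well-covered cells of section 1, and 0.852% against 0.523% in section 2. Csf1r, the receptor of a macrophage growth factor, took 0.128% against 0.399% in section 1 and 0.421% against 0.233% in section 2. Mrc1, the mannose receptor gene, took 0.0156% against 0.121%, and 0.0404% against 0.0264%. Adgre1, which encodes the macrophage antigen F4/80, took 0.0373% against 0.0846%, and 0.0706% against 0.0407%. Clec4f, the lectin that marks Kupffer cells in the mouse, stood apart from these, with 0.280% against 0.0964% and 0.175% against 0.100%. Of the 8 members 0 lay above the highest blank in section 1 low-count cells and 1, Csf1r, in those of section 2. Of the 8 tested, 7 had a ratio below 0 in section 1 and 7 a ratio above 0 in section 2, while over all 425 genes 55.8% were above 0 in section 1 and 75.8% in section 2. None of the 8 was called by edgeR. The monocyte and neutrophil list took 0.675% against 1.20% and 0.668% against 0.483%, with 0 of 10 members above the highest blank in either low-count sum. Itgb2, a leukocyte integrin subunit, had section ratios of -1.80 and 0.30, and Ncf1, a subunit of the phagocyte oxidase, -0.62 and 0.65. The general leukocyte list took 1.37% against 2.27% and 1.36% against 0.907%, with 9 of 11 tested members below 0 in section 1 and 10 of 11 above 0 in section 2. Of its 12 members 0 lay above the highest blank in section 1 low-count cells and 3 in those of section 2. Such a swap of sides, lower in section 1 and higher in section 2, was seen in 145 of all 425 genes, or 34.1%.

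B-lineage markers took 0.996% (0.893 to 1.11) in low-count cells against 1.09% (1.06 to 1.13) in well-covered cells of section 1, where the intervals overlapped, and 0.862% (0.816 to 0.910) against 0.481% (0.447 to 0.517) in section 2. Ighm, the immunoglobulin heavy chain gene, took 0.221% against 0.654% in section 1 and 0.333% against 0.180% in section 2. Cd74, the invariant chain of MHC class II molecules, was higher in low-count cells of both sections, 0.526% against 0.219% and 0.329% against 0.186%, with a fitted log2 change of 1.28 (SE 0.62, adjusted p = 0.49, edgeR) that did not pass. Of the 9 members 1 lay above the highest blank in section 1 low-count cells and 2 in those of section 2. Of 8 members tested 0 were called, 5 had a ratio above 0 in section 1 and 7 in section 2, beside 55.8% and 75.8% of all 425 genes.

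Endothelial markers took 0.762% in low-count cells against 0.944% in well-covered cells of section 1, and 0.640% against 0.419% in section 2. Cdh5, the cadherin of endothelial junctions, took 0.118% against 0.192%, and 0.151% against 0.0847%. Oit3, a gene of sinusoidal endothelium, took 0.165% against 0.313%, and 0.165% against 0.134%. Kdr, a receptor of vascular endothelial growth factor, took 0.199% against 0.155%, and 0.0922% against 0.0495%, higher in low-count cells both times. All 8 members of the list lay under the highest blank in the low-count sums of both sections. Of the 8 tested 0 were called, 3 were above 0 in section 1 and 8 in section 2. Over all 425 genes, 55.8% were above 0 in section 1 and 75.8% in section 2.

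Stellate and mesenchymal markers took 3.15% in low-count cells against 2.11% in well-covered cells of section 1, and 1.51% against 1.56% in section 2. Col1a1 made up most of both and was the 1 member of 7 above the highest blank in the low-count sums. The other 6 members took 0.762% against 0.731% in section 1 and 0.413% against 0.418% in section 2. Cxcl12, a chemokine of mesenchymal cells, took 0.361% against 0.437%, and 0.180% against 0.219%. Col3a1, another fibrillar collagen gene, took 0.121% against 0.157%, and 0.155% against 0.130%, so it did not share the ratio of Col1a1. Of 7 members tested 1, Col1a1, was called, beside the 0.471% of all genes.

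**Figure D4:**
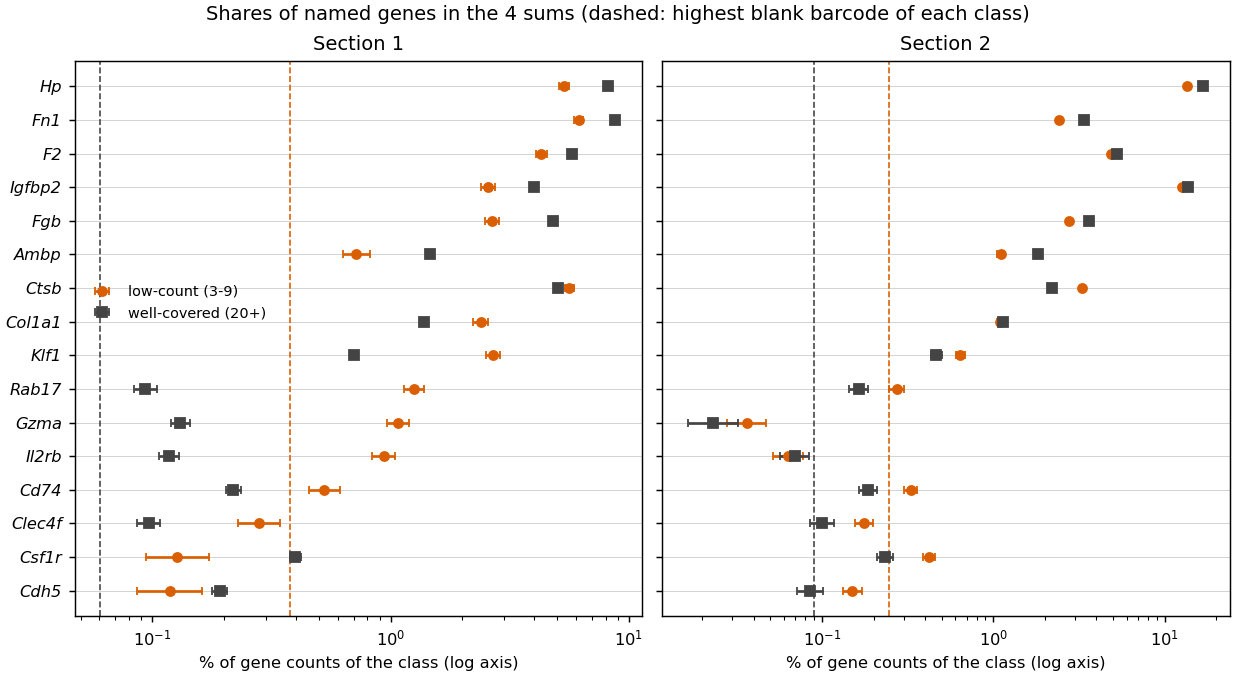
Points give the share of gene counts (percent, log axis) of 16 genes in low-count cells (orange circles) and well-covered cells (dark squares) of each section, with 95% Wilson intervals. Dashed lines mark the highest blank barcode of each class. Rab17, Gzma and Il2rb lie far apart between the classes in section 1, and Csf1r and Cdh5 change sides between the sections.

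The pericentral list of lobule zone markers took 2.29% (2.13 to 2.46) in low-count cells against 2.16% (2.11 to 2.21) in well-covered cells of section 1, where the intervals overlapped. In section 2 it took 2.31% against 2.10%. With the mean blank subtracted the direction turned in section 1, at 2.07% against 2.13%, and stayed in section 2, at 2.29% against 2.08%. Glul, the glutamine synthetase gene of hepatocytes around the central vein, took 0.750% against 0.686% and 1.05% against 0.818%. The periportal list took 2.04% against 2.44% and 2.42% against 2.85%. Pck1, a gluconeogenic enzyme gene, took 0.601% against 0.968% and 0.784% against 1.0%, and G6pc, of the same pathway, 0.190% against 0.361% and 0.133% against 0.214%. Above the highest blank of the low-count sums lay 2 of 14 pericentral members in section 1 and 3 in section 2, and 1 of 12 periportal members in section 1 and 3 in section 2. Of 13 pericentral and 12 periportal members tested 0 were called.

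A limit on counts removed many more cells than counts. Among cells with at least 3 counts, a minimum of 10 removed 39.3% of cells and 7.61% of gene counts in section 1, and 63.1% of cells and 33.1% of counts in section 2. A minimum of 20 removed 60.2% of cells and 18.0% of counts in section 1, and 88.8% and 67.1% in section 2. In section 1 the minimum of 10 removed 27.3% of T and NK cell list counts, 10.7% of erythroid, 10.4% of stellate, 7.11% of B-lineage, 6.37% of endothelial, 5.48% of hepatocyte, 5.12% of Kupffer and 4.60% of monocyte and neutrophil counts. In section 2 it removed 43.2% of B-lineage, 41.9% of erythroid, 41.5% of Kupffer, 39.8% of endothelial, 39.4% of monocyte and neutrophil, 37.1% of T and NK cell, 32.3% of stellate and 30.4% of hepatocyte counts. The hepatocyte list lost less than all genes together in both sections, and the erythroid and T and NK cell lists lost more. The Kupffer, myeloid and endothelial lists lost less than all genes in section 1 and more in section 2. For single genes the minimum of 10 removed 40.9% of Rab17 counts in section 1 and 49.2% in section 2, 21.8% and 41.0% of Klf1, 31.9% and 40.3% of Gzma, and 2.72% and 42.1% of Csf1r.

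**Figure D5:**
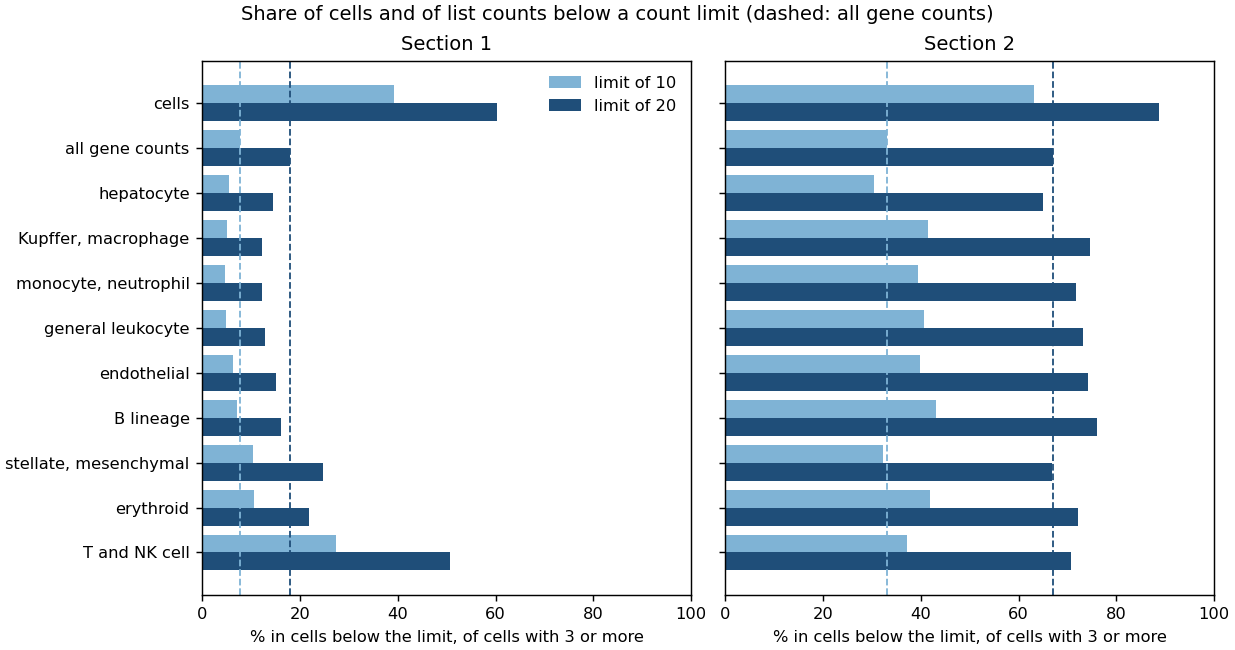
Bars give the percent of cells, of all gene counts and of each marker list's counts that lie in cells below 10 (light) or below 20 (dark) gene counts, among cells with at least 3, in each section. Dashed lines mark all gene counts; the T and NK cell list loses 27.3% at the minimum of 10 in section 1 against 7.61% of all counts.

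Other measures of the cells also differed between the classes. The rule used volume only as a minimum that removed 0 cells. Low-count cells were smaller, with a median volume of 762 in section 1 and 901 in section 2 against 1275 and 1471 in well-covered cells. With 2 sections no test of such a pair of differences can go below p = 0.5 in an exact permutation test, so these values are descriptions. DAPI signal per volume, from the DNA stain, had a median of 926037 in low-count cells and 636923 in well-covered cells of section 1, and 197612 and 173092 in section 2. The Ttr image signal per volume was 648536 against 458653 in section 1 but 151024 against 186724 in section 2, on opposite sides. Low-count cells lay beside their own kind: of the 10 nearest cells of a low-count cell, 31.7% were low-count in section 1 and 41.9% in section 2, where the shares among all cells were 22.9% and 32.4%. Well-covered cells were more strongly gathered, with 58.2% and 24.7% of neighbours well-covered against 23.2% and 5.76% of all cells. The median number of gene transcripts outside any cell within 20 length units of the cell's centre was 31 and 17 for low-count cells, 71 and 37 for well-covered cells, and 11 and 6 for cells with 0 to 2 counts. The area around low-count cells thus held fewer unassigned transcripts than that around well-covered cells.

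The image plane of the transcripts also differed. The transcripts of a cell were read in 7 planes, numbered from 0. Plane 0 held 50.1% of the gene transcripts in low-count cells and 37.3% in well-covered cells of section 1, 59.9% of those outside cells, and 28.8%, 27.2% and 35.6% in section 2. Genes differed in this. In low-count cells of section 1, plane 0 held 74.7% of Hp, 75.4% of Fgb and 69.1% of Fn1 transcripts, but 13.1% of Rab17, 18.3% of Il2rb, 25.2% of Col1a1, 25.5% of Klf1 and 30.7% of Gzma. In well-covered cells of the same section the values were 41.7% for Hp, 42.7% for Fgb, 16.4% for Rab17, 21.5% for Klf1 and 20.9% for Gzma. Blank barcodes in section 1 low-count cells had 32.2% in plane 0. Without plane 0 the hepatocyte list took 12.9% of gene counts in low-count cells and 28.7% in well-covered cells of section 1, and 40.3% and 47.9% in section 2. The part of image plane, cell volume, place in the section and blank rate in the differences between the classes was not tested.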

How the data were processed

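Both sections were analysed from transcript counts per segmented cell, deposited by the authors as raw whole numbers for 500 genes and 50 blank barcodes. Per the file headers, cell volume is a signal without a named unit, stain values are intensities summed per cell (here divided by volume), and shape scores were examined and are not reported. Slides were imaged with MERFISH per the labels' protocols. Tools for decoding and segmentation: not given in the sources used here. Recounting the transcript lists gave the same gene total in every cell of both sections (26037 and 85929). Shares are a gene's percent of its class's gene counts, with 95% Wilson intervals. The test used edgeR 4.0.16 in R 4.3.3 with offsets of the log other counts and no TMM factors, section as block, and at least 50 counts per gene over the 4 sums. Ratios per section add 0.5 to each count. DESeq2 1.42.0 was an alternative. The test was tested on simulated data. Both sums of a block come from the same section, so the block needs no further check. Replicates are 2 sections. The p-values rest on how the difference between the classes varied between the sections, with that spread moderated over all genes tested. Named genes were the called ones, the 5 largest shares per sum and up to 4 most counted tested members of each list; Cd3e, Cd8b1 and the further genes of the closing section were named after their values were seen. The members and gene lists were chosen with earlier results of these data known. Alternatives covered class limits, scaling, filters, volume, place and single sections.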

Additional observations from a re-analysis of the deposited data

How the results depend on the processing

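The main result had 2 called genes. Dropping the volume minimum, which removed 0 cells, repeats the main fit and its 2 calls. The count stayed at 2 with genes of at least 10 counts, with no count filter and with low-count cells of 5 to 9 counts. The count was also 2 with well-covered cells of at least 10 and with a volume minimum of 200. It was 1 with TMM factors, with DESeq2 on share offsets, with cells of 10 to 19 counts added, and in tiles with at least 5 cells of each class. It was 0 with the gene's own counts kept, with DESeq2 size factors, with the 36 genes above the highest blank, with low-count cells of 3 to 4 counts, with well-covered cells of at least 40, and among cells of middle volume. Without the replicate block (no pairing of the sums of a section) it was also 0, and Col1a1 had an adjusted p of 0.52 (edgeR). With 1 section the fit has no residual degree of freedom, so no count was made. Of 17 alternatives, Col1a1 was no longer called in 8 (log2 change 0.37 to 2.22, adjusted p 6.9e-06 to 0.97) and Rab17 in 10 (1.93 to 3.00, adjusted p 0.0069 to 0.85). Among these 17 is the repeat of the main fit, which gave the lowest Col1a1 adjusted p. Keeping the own counts returns some Col1a1-rich cells to the well-covered class. Some other alternatives had fewer genes or cells, but they also changed which genes or cells were compared. Why calls were lost was not tested for any alternative.

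List values here are the mean over both sections of the log2 ratio of shares, low-count over well-covered, and moved means by more than the sections' SD. The erythroid list moved from 0.57 to 0.75 with the mean blank subtracted, 0.44 with 5 to 9 counts, 0.54 against at least 40, 0.67 in tiles and 0.74 among cells of middle volume. The megakaryocyte list moved from -0.12 to 0.020 with cells weighted equally, -0.29 with blanks subtracted, -0.44 against at least 40, -0.18 in tiles and 0.25 at middle volume. The pericentral list moved from 0.11 to 0.051 with equal weights, 0.048 with blanks subtracted, 0.16 with 5 to 9 counts and 0.18 against at least 40. The periportal list moved from -0.24 to -0.20 with equal weights, -0.30 with blanks subtracted, -0.30 against at least 40, -0.29 in tiles and -0.35 at middle volume. With blanks subtracted the Kupffer list went from 0.02 to -1.42, the monocyte and neutrophil list from -0.18 to -1.44, the matrix list from -0.16 to 0.020 and the Notch list from 0.28 to 0.16. Against at least 40 counts the matrix list was -0.23 and the Notch list 0.37. With blanks subtracted the cholangiocyte, dendritic and progenitor lists fell below 0 in section 1 low-count cells, so no log2 ratio was formed. At middle volume the Notch list was 0.43 and the progenitor list 1.05, from 0.61.

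The next 2 alternatives were chosen after seeing the data. With cells chosen by counts outside the list, the hepatocyte list went from -0.37 to 0.16, plasma proteins from -0.41 to 0.051, matrix to 0.26, erythroid to 0.76, stellate from 0.26 to 1.50, megakaryocyte to 0.13, pericentral to 0.24, periportal to -0.15 and Notch to 0.36. In image planes 1 to 6 the hepatocyte list was -0.70, coagulation -0.72 from -0.41, plasma proteins -0.77, erythroid 0.69, pericentral -0.018, periportal -0.28 and Notch 0.40. The log2 ratio of median volume moved from -0.72 to -0.64 with 5 to 9 counts and to -1.01 against at least 40, where PolyT signal per volume went from 0.12 to 0.15. The remaining 207 list values and 42 values of other measures moved by less than the sections' SD. They include the values of each section alone. Those lie within that SD by arithmetic, so they say nothing about stability. Depth limits the section 1 low-count sum most, with 32134 counts.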

Other observations

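The 22 genes more than 2-fold higher in low-count cells of both sections were picked by that threshold after their values were seen, and no gene group was tested for among them. Only Col1a1 and Rab17 among them passed the edgeR test. After this pair the largest fitted log2 changes were those of Lamp3 (section log2 ratios 3.77 and 1.22), Thy1 (2.85 and 1.49), Itga2 (3.17 and 1.14), Anxa3 (2.38 and 1.68) and Slfn1 (2.07 and 1.68). The others were Cd74, Cdkn1b, Clec4f, Cyp4f18, Dpp4, Eps8l3, Gimap4, H2-Ab1, Il1a, Lhpp, Ltb, Mcpt8, Nkg7, Samd9l and Vldlr. In the section 1 low-count sum 6 of the 22 lay above the highest blank barcode, and in all 4 sums 4 did.

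The remaining lists had 0 called members apart from Col1a1, which the matrix and adhesion list also holds. The cholangiocyte list took 0.377% in low-count cells against 0.326% in well-covered cells of section 1 and 0.188% against 0.203% in section 2. The megakaryocyte and platelet list took 0.706% against 0.748% and 0.291% against 0.325%. The dendritic cell list took 0.146% against 0.0612% and 0.225% against 0.177%, and the blood progenitor list 0.345% against 0.208% and 0.122% against 0.0874%. Of these 4 lists 0 members lay above the highest blank in either low-count sum. With the mean blank subtracted, the section 1 low-count shares were -0.226% for the cholangiocyte, -0.215% for the dendritic and -0.355% for the progenitor list, below the well-covered values of 0.243%, 0.0087% and 0.107%, so the direction turned in these 3 lists. The cell cycle list took 1.46% against 1.90% and 0.739% against 0.588%, led by Mki67, a proliferation marker, with section log2 ratios of -0.20 and 0.84. The lysosome and endocytosis list took 7.26% against 7.52% and 4.70% against 3.53%. Within it Ctsb was higher in low-count cells of both sections (fitted log2 change 0.53, SE 0.22, adjusted p = 0.32, edgeR) and Lrp1, an endocytic receptor gene, had section ratios of -0.47 and 0.25. The Wnt list took 1.07% against 0.548% and 0.593% against 0.704%, the Notch list 0.703% against 0.588% and 0.336% against 0.272%. Of the 5 Notch members 0 and of the 9 Wnt members 1 lay above the highest blank in each low-count sum. The glycolysis and pentose phosphate list took 2.49% against 3.46% and 2.75% against 2.95%, and the matrix and adhesion list 11.3% against 12.3% and 4.75% against 5.46%.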
